A study of Rattus norvegicus with 10 samples.

Results

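Neocortical layer marker genes were followed in the left hippocampus of 10 male TgF-344AD rats aged 11 months. The set was given by name and holds 9 genes: Rorb, Cux2, Mef2c, Tbr1, Lamp5, Rasgrf2, Etv1, Fezf2 and Neurod6. Of the 17168 genes in the deposited tables, 8 were members, and all 8 passed the filter on low counts. Mef2c was not analysed here. The 5 untreated rats (genotype Tg-AD) ate rodent chow, and the 5 RG2833 rats (genotype Tg-AD) ate chow with 750 mg of RG2833 per kg. RG2833 blocks HDAC1 and HDAC3, enzymes that remove acetyl groups from histones. Feeding began at 5 months of age and lasted 6 months; 1 sentence of the design text names ibudilast in its place, while the title and the sample labels name RG2833. TgF344-AD rats are known to carry mutant human APP and presenilin transgenes under a prion promoter, and both groups carry them, so no group here shows the genes without the transgenes.

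The neocortex is built of layers of pyramidal neurons, and each layer is marked by transcription factors that fix the identity and the axonal targets of its neurons. Cux2, a homeodomain factor, and Rorb, a nuclear receptor, mark the upper and middle layers. Fezf2, a zinc finger factor, and Etv1, an ETS factor, mark layer 5, and Tbr1, a T-box factor, marks layer 6. Neurod6 is a bHLH factor of pyramidal neurons in general. None of these genes is private to the neocortex: Neurod6, for one, is a known gene of hippocampal pyramidal neurons, and several of the others are transcribed in parts of the hippocampal formation or in other cell classes. The labelled tissue was checked against its own markers. Of the listed genes of dentate granule cells, CA1 and CA2 or CA3, 7 of 10, 6 of 9 and 7 of 11 were tested. Those tested were measured in all 10 libraries. The granule cell factor Prox1 was at 4.30 CPM (counts scaled to a common library size) in untreated replicate 3 against 21.5 to 50.5 CPM in the other 9. C1ql2, Pdyn, Trpc6 and Stxbp6 of the granule list were also lowest in that library, but C1ql3 and Plk5 were not. Plk5 was at 19.7 CPM there, within the 5.53 to 30.2 CPM of the other rats.

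Total expected counts ran from 15118203 to 18533520 per library, and each member had from 190 to 4680 counts in a library. CPM here are on a library size scaled by edgeR's TMM factors; they are not divided by gene length, so levels are compared between rats and not between genes. In 3 libraries, untreated replicate 3 and RG2833 replicates 4 and 5, several members stood apart from the rest, and each member's fold change is also given without these 3. They are the 3 highest in Cux2, so they were picked by a measured level, and the values without them are a description with no test. Ribosomal RNA took 11.4%, 9.37% and 8.92% of the counts in them, and from 4.07% to 8.71% in the other 7. Choroid plexus RNA was high in untreated replicate 2 and RG2833 replicate 1, where Ttr, the transthyretin gene, was at 6929 and 8190 CPM. In the other 8 it was between 3.11 and 236 CPM. Each library is 1 rat, and in such bulk tissue fewer cells of a type and less RNA per cell cannot be told apart.

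The members whose levels moved furthest between rats fell into 2 opposite pairs, and the pairs cut across the groups. Cux2 and Tbr1 were high in the 3 libraries in which Neurod6 and Rasgrf2 were low. The promoters of these 4 genes are shown because their RNA levels moved together or in opposition; each sequence is the 300 bases from 250 before to 50 after the start site in the RefSeq table of GRCr8, read 5′ to 3′ on the gene's strand. They lie at chr12:40179032-40179331 (+ strand), chr3:66759553-66759852 (+ strand), chr4:86180106-86180405 (- strand) and chr2:25096562-25096861 (- strand). Capitals mark matches to 4 motifs searched on both strands: CAGATG, an E-box of the Neurod family; CTA and TAG on either side of any 4 bases, a core of MEF2 sites; AGGTGTGA, a T-box core; and AGGTCA, a nuclear receptor core. The motifs do not overlap in these windows.
Cux2: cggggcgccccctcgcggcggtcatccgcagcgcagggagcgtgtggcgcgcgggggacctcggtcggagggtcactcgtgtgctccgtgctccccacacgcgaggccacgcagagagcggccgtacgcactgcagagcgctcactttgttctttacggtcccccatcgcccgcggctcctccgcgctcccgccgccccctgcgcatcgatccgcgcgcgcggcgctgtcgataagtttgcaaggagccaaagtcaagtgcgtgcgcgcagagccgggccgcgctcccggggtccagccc
Tbr1: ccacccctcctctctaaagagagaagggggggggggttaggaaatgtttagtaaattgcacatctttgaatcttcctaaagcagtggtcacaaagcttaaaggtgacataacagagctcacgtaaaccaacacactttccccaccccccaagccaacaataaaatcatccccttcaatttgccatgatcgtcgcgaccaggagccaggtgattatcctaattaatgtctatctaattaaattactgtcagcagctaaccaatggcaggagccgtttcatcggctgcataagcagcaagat
Neurod6: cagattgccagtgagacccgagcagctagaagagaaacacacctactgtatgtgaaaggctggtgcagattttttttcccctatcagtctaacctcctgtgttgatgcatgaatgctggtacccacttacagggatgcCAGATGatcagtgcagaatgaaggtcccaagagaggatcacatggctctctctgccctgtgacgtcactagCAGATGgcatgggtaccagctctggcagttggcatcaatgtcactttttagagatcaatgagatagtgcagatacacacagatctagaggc
Rasgrf2: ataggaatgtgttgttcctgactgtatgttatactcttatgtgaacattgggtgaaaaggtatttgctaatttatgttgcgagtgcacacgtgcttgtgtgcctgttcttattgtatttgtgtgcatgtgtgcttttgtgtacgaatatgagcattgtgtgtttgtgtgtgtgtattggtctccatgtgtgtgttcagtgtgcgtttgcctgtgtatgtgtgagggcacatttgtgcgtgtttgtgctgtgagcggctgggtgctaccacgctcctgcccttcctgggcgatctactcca
Neurod6 had 2 matches to CAGATG, which begin 112 and 41 bases before the start site. Of all 33469 promoters in the table, 16.6% hold CAGATG, 3.84% hold the MEF2 core, 1.1% hold AGGTGTGA and 16.2% hold AGGTCA. The other 7 members measured had no match to any of the 4 motifs in this window. The windows also differed in base composition, with 73.0% G and C for Cux2, 45.3% for Tbr1, 48.3% for Neurod6 and 45.7% for Rasgrf2; the median of all promoters was 51.7%.

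Of the upper-layer genes, Cux2 varied most. Cux2 was at 35.4, 33.9, 141, 59.9 and 33.3 CPM in untreated replicates 1 to 5. In RG2833 replicates 1 to 5 it was at 41.0, 31.9, 28.3, 92.4 and 106 CPM. Untreated replicate 3 and RG2833 replicates 5 and 4 were the highest in that order, untreated replicate 4 was the next, and the groups overlapped over nearly their whole range. The highest library was 4.98-fold above the lowest. The SD of log2 CPM over the 10 libraries was 0.838, above that of 97.4% of all genes tested, and the median SD of all genes was 0.192. Untreated rats had a mean of 60.7 ± 46.2 CPM and treated rats one of 60.0 ± 36.5 CPM (SD, n = 5 each). The log2 fold change, RG2833 over untreated, was -0.02 (SE 0.51; edgeR quasi-likelihood adjusted p = 0.998), and its 95% interval ran from -1.14 to 1.11, so a 2-fold difference in either direction lay inside it. Without the 3 libraries that stood apart it was -0.27. In the fits that each left out 1 rat it ran from -0.33, without RG2833 replicate 5, to 0.56, without untreated replicate 3.

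Rorb had the lowest unadjusted p of the 8. Untreated replicates 1 to 5 held 11.3, 10.2, 19.3, 15.2 and 12.8 CPM of Rorb. RG2833 replicates 1 to 5 held 12.3, 17.8, 18.2, 23.5 and 23.4 CPM. Of the RG2833 rats 4 lay above 4 of the untreated rats, and the groups overlapped through untreated replicate 3, which was high, and RG2833 replicate 1, which was low. The means were 13.8 ± 3.64 and 19.1 ± 4.67 CPM. RG2833 rats were thus higher by 0.47 on the log2 scale (SE 0.21), or 1.38-fold with a 95% interval of 1.00 to 1.91. Rorb did not pass the edgeR test over all genes (adjusted p = 0.841, unadjusted p = 0.0483). The unadjusted p lay above 0.05 in 8 of the 10 edgeR fits that each left out 1 rat. It was 0.0513 with median-of-ratios size factors and 0.0388 by DESeq2. Over all 20 alternative fits it ran from 0.00929, without untreated replicate 3, to 0.115, without RG2833 replicate 4, both by edgeR. The lowest adjusted p of these fits was 0.292. The log2 fold change stayed between 0.38 and 0.62 in the leave-one-out fits. Without the 3 libraries that stood apart it was 0.38. The astrocyte list moved with Rorb over the libraries. All 8 of its genes were measured, their lowest mean was 35.4 CPM, and their summed level was 6779 to 10530 CPM in untreated rats and 7826 to 11540 CPM in treated ones. In the comparison of the groups, 8 of 8 astrocyte genes had a higher mean in RG2833 (46.5% of all genes did), with a median log2 fold change of 0.32. By the edgeR test over all genes 0 of 8 passed, and 1 had an unadjusted p under 0.05 (5.66% of all genes did). The part of astrocytes in the Rorb difference was not tested.

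Rasgrf2 encodes an exchange factor for Ras proteins and is used as a marker of the upper layers. Its level in untreated replicates 1 to 5 was 109, 93.5, 34.7, 81.2 and 80.6 CPM. In RG2833 replicates 1 to 5 it was 81.4, 82.7, 104, 58.6 and 44.3 CPM. The 3 lowest rats were the 3 that were highest in Cux2, and the other 7 lay between 80.6 and 109 CPM. Thus 2 markers of the same layers, Cux2 and Rasgrf2, had largely opposite orders over these rats (Pearson r = -0.932 and Spearman rho = -0.758 over 10 libraries, given as a description). The group difference was small beside that spread, with a log2 fold change of -0.10 (SE 0.29; edgeR adjusted p = 0.981), or -0.029 without the 3 rats.

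Lamp5 encodes a lysosome-associated membrane protein of upper-layer neurons and of a class of interneurons. Lamp5 was at 59.3, 47.2, 52.3, 71.5 and 54.4 CPM in untreated replicates 1 to 5 and at 49.0, 53.8, 55.5, 48.6 and 42.5 CPM in RG2833 replicates 1 to 5. It was the member with the smallest spread over the 10 rats, 1.68-fold from lowest to highest, and 53.6% of all genes varied no more. The highest rat was untreated replicate 4, the lowest RG2833 replicate 5, and the groups overlapped. The means of 57.0 ± 9.22 and 49.9 ± 5.07 CPM differed by a log2 fold change of -0.19 (SE 0.11; edgeR adjusted p = 0.841), and the unadjusted p was 0.121. It was -0.095 without untreated replicate 4, -0.25 without untreated replicate 2 (unadjusted p = 0.0438, edgeR adjusted p = 1.000), and -0.14 without the 3 rats that stood apart.

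**Figure D1:**
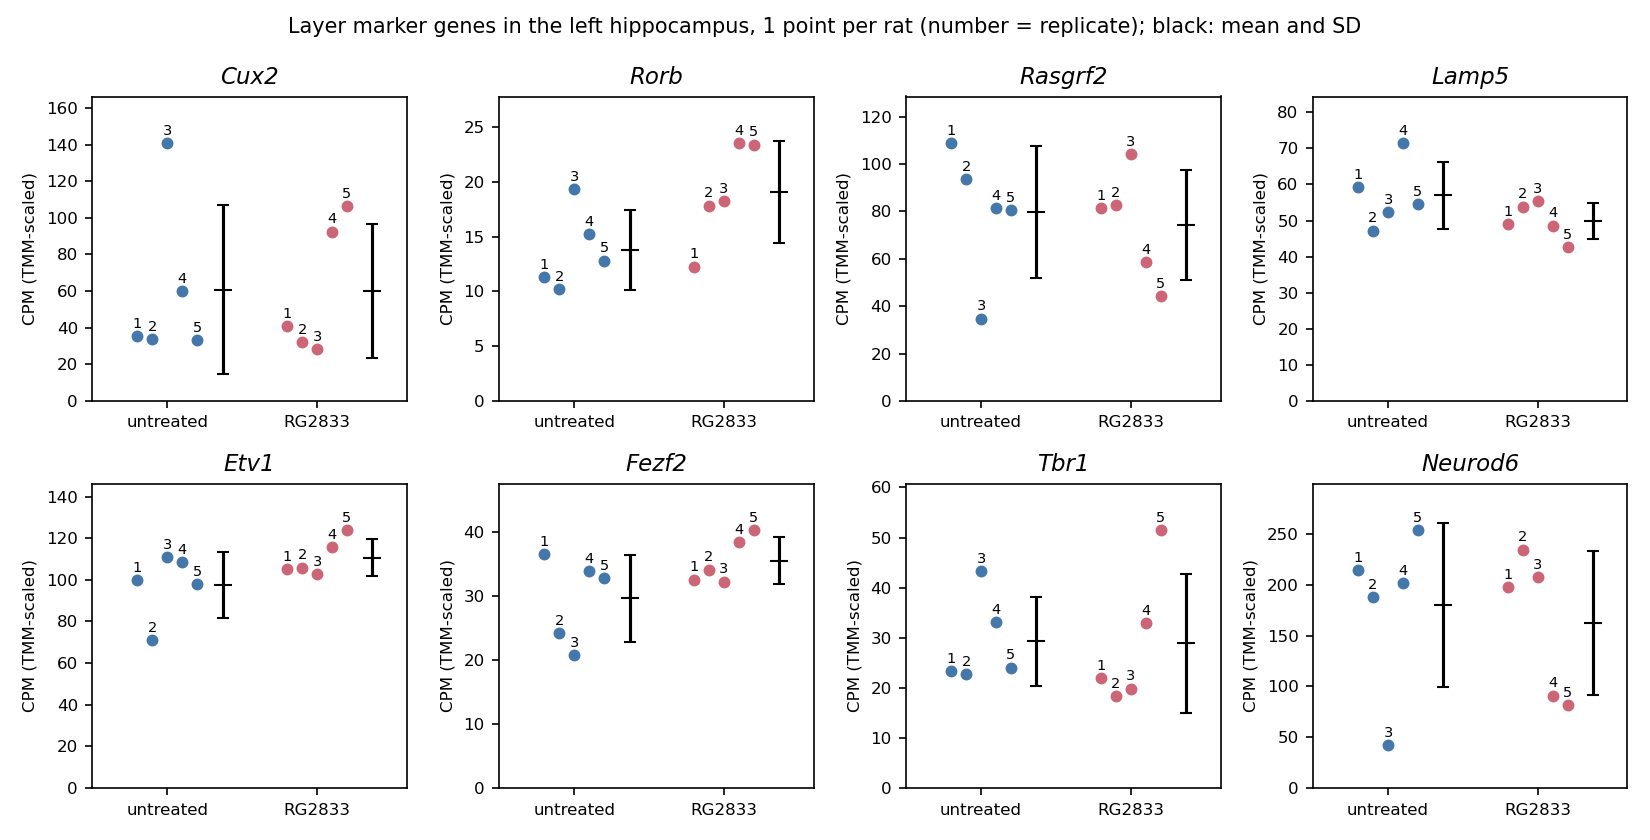
Level of each of the 8 layer marker genes in CPM (linear axis from 0), with 1 point per rat labelled by its replicate number, untreated in blue and RG2833 in red, and the group mean and SD in black (n = 5 each). Untreated replicate 3 and RG2833 replicates 4 and 5 are the highest points for Cux2 and the lowest for Rasgrf2 and Neurod6, and the groups overlap for all 8 genes.

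The layer 5 genes did not share that pattern in full. Etv1 was at 99.8, 70.9, 111, 109 and 98.1 CPM in untreated replicates 1 to 5 and at 105, 106, 103, 116 and 124 CPM in RG2833 replicates 1 to 5. Only untreated replicate 2 lay far from the rest. The 3 highest rats were RG2833 replicates 5 and 4 and untreated replicate 3, the latter by a margin of about 2 CPM over the next. Its means were 97.7 ± 15.9 and 111 ± 8.89 CPM, and RG2833 rats were higher by 0.18 on the log2 scale (SE 0.11; edgeR adjusted p = 0.852), or by 0.086 without untreated replicate 2 and 0.15 without the 3 that stood apart.

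Fezf2, which directs neurons of layer 5 to project to the brainstem and the spinal cord, was at 36.6, 24.2, 20.8, 34.0 and 32.8 CPM in untreated replicates 1 to 5. In RG2833 replicates 1 to 5 it was at 32.6, 34.2, 32.3, 38.5 and 40.4 CPM. Untreated replicate 3 was the lowest of all 10 rats and RG2833 replicates 4 and 5 were the highest, so the 3 rats that shared high Cux2 lay at both ends for Fezf2. The means of 29.7 ± 6.81 and 35.6 ± 3.64 CPM gave a log2 fold change of 0.26 (SE 0.15; edgeR adjusted p = 0.841). It was 0.35 without untreated replicate 1 (unadjusted p = 0.0439, edgeR adjusted p = 0.913), 0.16 without untreated replicate 3, and 0.046 without the 3 rats that stood apart.

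Tbr1, the factor of layer 6, followed Cux2. Tbr1 was at 23.3, 22.7, 43.3, 33.1 and 24.0 CPM in untreated replicates 1 to 5 and at 21.9, 18.3, 19.8, 32.9 and 51.5 CPM in RG2833 replicates 1 to 5. RG2833 replicate 5 and untreated replicate 3 were the highest, and untreated replicate 4 and RG2833 replicate 4 came next with nearly the same level. The correlation of log2 CPM with Cux2 over the 10 libraries was r = 0.933 (rho = 0.855), given as a description. How far it rests on these rats was not tested. Tbr1 did not pass the test between the groups (log2 fold change -0.02, SE 0.30; edgeR adjusted p = 0.996). With all 3 rats left out its log2 fold change was -0.37 (unadjusted p = 0.0327, edgeR adjusted p = 0.890), and Tbr1 was then the 1 member with an unadjusted p under 0.05. Since these rats were picked by Cux2, which Tbr1 follows, that p is no test of the groups.

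Neurod6, which acts in pyramidal neurons of neocortex and hippocampus alike, had the widest range of the 8. Untreated replicates 1 to 5 held 214, 188, 42.1, 202 and 254 CPM of Neurod6, and RG2833 replicates 1 to 5 held 198, 235, 208, 90.8 and 81.7 CPM. The 3 rats highest in Cux2 were the 3 lowest here, and no other rat was under 188 CPM. The highest library was 6.03-fold above the lowest, and the SD of log2 CPM, 0.854, was above that of 97.5% of all genes. The group means were 180 ± 80.9 and 163 ± 71.0 CPM. Their log2 fold change of -0.15 (SE 0.44; edgeR adjusted p = 0.982) was -0.010 without the 3 rats.

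A ratio of 2 genes within a library does not depend on how libraries are scaled. The count of Cux2 over that of Neurod6 was 0.165, 0.181, 3.34, 0.297 and 0.131 in untreated replicates 1 to 5. It was 0.207, 0.136, 0.136, 1.02 and 1.30 in RG2833 replicates 1 to 5. The ratio was thus at least 1.02 in 3 rats and at most 0.297 in the other 7; since counts are not divided by gene length, only its change between rats can be read. The count of Tbr1 over that of Rasgrf2 was 1.25 in untreated replicate 3 and 1.16 and 0.561 in RG2833 replicates 5 and 4, and from 0.190 to 0.408 in the other 7. Rorb over Lamp5 was from 0.191 to 0.370 in untreated rats and from 0.250 to 0.550 in RG2833 rats, with medians of 0.216 and 0.331. For the first pair both groups held rats at each end: the medians of the Cux2 ratio were 0.181 in untreated and 0.207 in RG2833 rats.

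**Figure D2:**
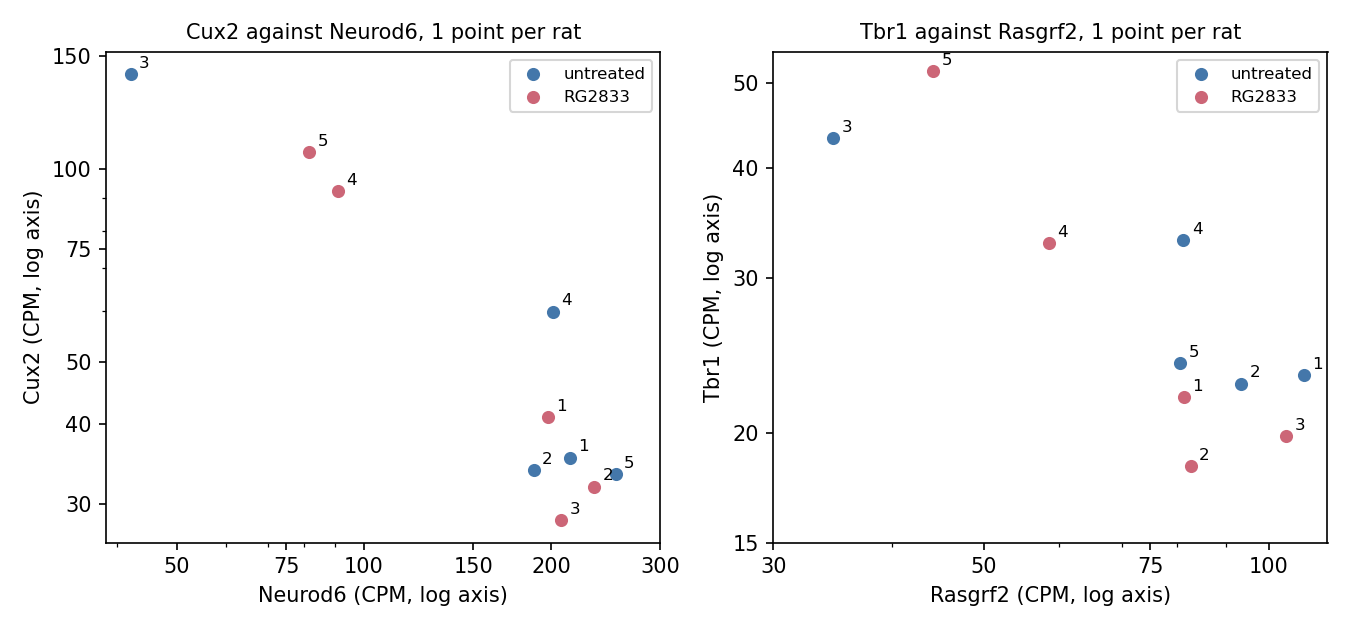
Cux2 against Neurod6 (left) and Tbr1 against Rasgrf2 (right), in CPM on log axes, with 1 point per rat labelled by its replicate number, untreated in blue and RG2833 in red. Untreated replicate 3 and RG2833 replicates 4 and 5 lie to the left of the other 7 rats in both plots and above them in the left one; in the right plot untreated replicate 4 is level with RG2833 replicate 4.

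Of the 8 genes, 0 passed the test of RG2833 against untreated rats. By edgeR's quasi-likelihood test with Benjamini-Hochberg adjustment over 12161 genes, 0 members and 0 genes in all passed at 0.05 (0% of all genes); DESeq2 called 7 genes, and the smallest DESeq2 adjusted p of a member was 0.774, for Rorb. At an unadjusted p under 0.05 there was 1 of 8 members, Rorb, and 688 genes (5.66%) of all. Of the members 3 had a log2 fold change above 0, as 46.5% of all genes did, and 5 had one below 0, as 53.5% of all genes did. The groups did not overlap for 0 of 8 members, and for 1.0% of all genes. The median log2 fold change was -0.02 over the members and -0.01 over all genes; without untreated replicate 3 the median over the members was 0.16, with 5 of 8 above 0. The intervals of the fold changes were wide for the 4 members that moved most between rats: from 0.45 to 2.15-fold for Cux2, 0.46 to 1.77 for Neurod6, 0.59 to 1.46 for Rasgrf2 and 0.62 to 1.56 for Tbr1. For Lamp5 the interval was 0.74 to 1.04-fold.

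**Figure D3:**
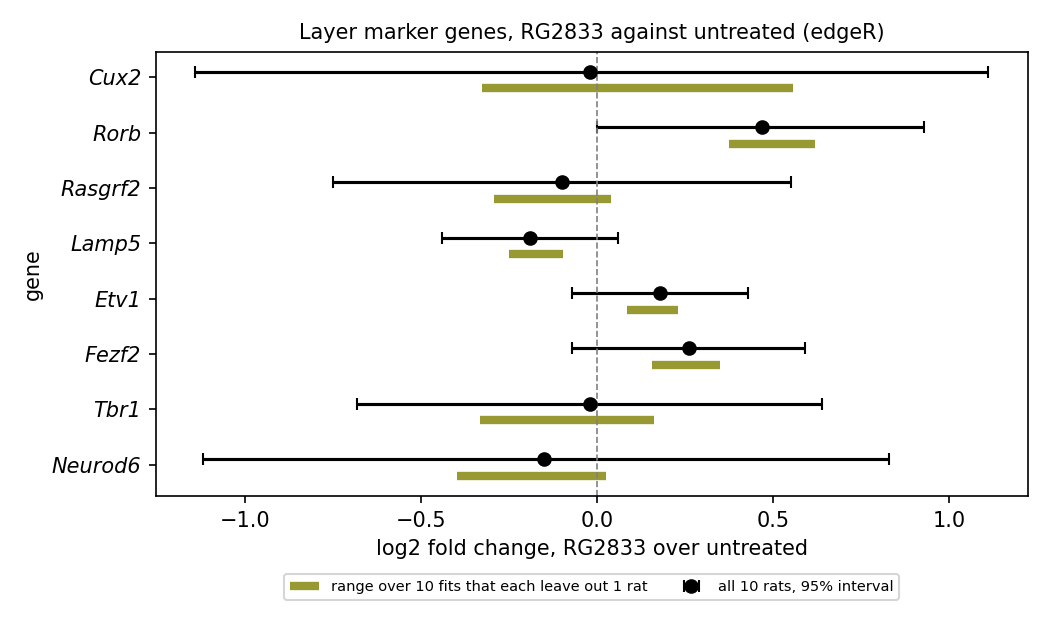
Log2 fold change of each of the 8 genes, RG2833 over untreated, with its 95% interval (black, all 10 rats) and the range over the 10 fits that each leave out 1 rat (bar). The intervals of 7 genes lie on both sides of 0 and that of Rorb starts at 0.00; the leave-one-out ranges of Cux2, Tbr1, Rasgrf2 and Neurod6 include 0, and those of Rorb, Lamp5, Etv1 and Fezf2 do not.

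Further genes of the same layers were read from the same fit, by lists that do not contain the members. Of 50 listed genes (13 of layers 2 to 4, 14 of layer 5, 12 of layer 6 and 11 of pyramidal neurons in general), 43 were tested. By edgeR 0 of 43 passed at an adjusted p of 0.05; at an unadjusted p under 0.05, 3 were higher and 1 was lower in RG2833, against 2.94% higher and 2.71% lower over all genes. Without untreated replicate 2, or without RG2833 replicate 4, 1 of the 43 was under that p. The 3 higher genes were on the list of layers 2 to 4. Lhx2, a LIM homeobox factor of the developing cortex, had means of 101 ± 6.83 and 122 ± 8.65 CPM, in that order of groups (0.27 on the log2 scale, SE 0.07, unadjusted p = 0.00212). Pou3f3, a POU factor, was at 77.3 ± 9.24 and 95.3 ± 15.5 CPM (0.30, SE 0.12). Rspo1, a secreted activator of Wnt signalling, was at 8.37 ± 3.06 and 12.7 ± 2.56 CPM (0.60, SE 0.23). The lower gene was Rbp4, a retinol carrier, with 18.4 ± 9.09 and 11.2 ± 1.98 CPM (-0.72 on the log2 scale, SE 0.28). Untreated replicate 2 was the highest for Rbp4, at 33.8 CPM, and the other untreated rats were at 12.3 to 19.4 CPM. Of the 2 libraries rich in choroid plexus RNA it was the only one high in Rbp4, since RG2833 replicate 1 was at 12.1 CPM, within the 8.18 to 13.4 CPM of the other RG2833 rats. The edgeR adjusted p was 0.841 for all 4, and the groups overlapped for each. The genes with the highest mean CPM of the other lists, a value that also depends on gene length, did not pass either: Sulf2 for layer 5, Tle4 for layer 6 and Camk2a for pyramidal neurons had log2 fold changes of -0.07, 0.08 and 0.12. The median log2 fold change was 0.03 for layers 2 to 4, 0.05 for layer 5, 0.04 for layer 6 and 0.00 for pyramidal neurons.

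Of the layer lists, that of layer 6 alone set the 3 libraries apart. The layer 6 list, as the mean difference of log2 CPM from the average of the 10 libraries, was at 0.74, 0.45 and 0.71 in untreated replicate 3 and RG2833 replicates 4 and 5, and from -0.47 to 0.11 in the other 7. In 6 of its 12 genes these 3 libraries were the 3 highest: Cplx3, Nxph4, Sla, Sox5, Rprm and Igsf21, named after their values were seen. Rprm was at 38.4, 19.9 and 24.4 CPM in the 3 and from 4.41 to 13.4 CPM in the other 7, and Cplx3 at 26.0, 19.1 and 26.1 CPM against 3.92 to 10.8 CPM. Other genes of the list went the other way in untreated replicate 3, which was the lowest of the 10 libraries for Zfpm2 (8.66 CPM, with 22.2 to 33.6 CPM in the other 9), Tle4 (59.4 CPM, with 82.2 to 96.4 CPM) and Syt6 (2.69 CPM, with 2.90 to 6.00 CPM). The list of layers 2 to 4 was at 0.23, 0.09 and 0.28 in the 3 libraries, against -0.29 to 0.09, so that it touched the range of the others; they were the 3 highest for 2 of its 12 genes, Pou3f2 and Plxnd1, and the 3 lowest for Mdga1. The mean of the layer 5 list was at -0.18, -0.01 and 0.04, against -0.08 to 0.13, and its genes went both ways. The 3 libraries were the 3 lowest for Bcl11b (65.2, 97.0 and 107.8 CPM, against 131 to 202 CPM) and Sulf2, and the 3 highest for Tcerg1l (15.6 to 17.6 CPM, against 2.97 to 12.9 CPM). The list of pyramidal neurons in general was low there, at -0.55, -0.20 and -0.23 against -0.02 to 0.32, and 5 of its 8 genes had the 3 libraries as the 3 lowest: Neurod1, Neurod2, Slc17a7, Nrn1 and Bhlhe22. Satb1 of the same list had the reverse ranking, at 81.0, 95.2 and 118.3 CPM against 44.3 to 66.6 CPM, and Camk2a in untreated replicate 3 was at 1910 CPM, within the 1570 to 2200 CPM of the other 7. The genes in this account of the lists were chosen after their values were seen.

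The same ranking was found in many other genes. The 3 libraries highest in Cux2 were also the 3 highest for 14.8% of all 12161 genes and the 3 lowest for 15.9%. Among the members, Rorb and Etv1 joined Cux2 at the high end and Rasgrf2 and Neurod6 were at the low end, which makes 3 and 2 of 8, with Cux2 having set the ranking. Of the lists of hippocampal neurons, the one of CA2 and CA3 lay at the low end in all 3 libraries without overlap, as did, by its mean, the dentate granule list. The dentate granule list was at -1.26, -0.32 and -0.41 in untreated replicate 3 and RG2833 replicates 4 and 5, against -0.12 to 0.73 in the others, and 7 of its 10 genes were tested, with a summed level of 159.9 to 528.8 CPM without the drug and 256.7 to 455.9 CPM with it; the 3 libraries were the 3 lowest for 2 of the 7. The list of CA2 and CA3 neurons was at -0.80, -0.42 and -0.74, against 0.19 to 0.43, with 7 of 11 genes tested and a summed level of 661.8 to 1468 CPM without the drug and 668.1 to 1388 CPM with it, and they were the 3 lowest for 6 of the 7. The means of the CA1 list did not separate them, at -0.53, -0.34 and -0.02 against -0.55 to 0.64. Nor did those of the interneuron list, at 0.33, 0.09 and -0.05 against -0.35 to 0.18. The 3 libraries were the 3 lowest for 0 of 6 CA1 and 0 of 9 interneuron genes. They were the 3 highest for 0 of 6 and 1 of 9, the latter Vip.

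Of the non-neuronal lists, those of microglia, astrocytes and endothelium were at the high end and that of oligodendrocytes was not. The microglia list (8 of 8 genes tested) was at 0.62, 0.22 and 0.27 in the same 3 libraries, against -0.29 to 0.03, with a summed level of 502.0 to 911.8 CPM in untreated rats and 528.0 to 725.2 CPM in treated ones. The astrocyte list was at 0.25, 0.38 and 0.36, against -0.43 to 0.13. The endothelial list (7 of 8 genes tested) was at 0.49, 0.33 and 0.56, against -0.46 to 0.06, with 346.4 to 657.2 CPM in untreated rats and 407.0 to 691.7 CPM in treated ones. The oligodendrocyte list (8 of 8 genes tested) was at -0.38, -0.03 and 0.44, against -0.28 to 0.35, and 1 of its 8 genes had the 3 libraries as the 3 highest. No marker of the microglia and endothelial lists was near 0: the lowest mean was 24.6 CPM among the microglial and 14.9 CPM among the endothelial genes. Their part in the levels of Cux2, Tbr1, Rasgrf2 and Neurod6 was not tested. The choroid plexus list was at 5.09 in untreated replicate 2 and 5.24 in RG2833 replicate 1. In the 3 libraries it was at 0.63, -0.60 and -3.10, and in the remaining 5 it was from -2.22 to -0.34, so that untreated replicate 3 came next after the 2 rich ones, with a summed level of 277.6 CPM. Of the other regional lists, that of the striatum was at 0.52, 0.20 and 0.37 in the 3 against -0.45 to 0.29. The thalamus list was at -0.01, -0.07 and 0.02 against -0.47 to 0.49. The subiculum list was at -0.22, -0.07 and 0.10 against -0.15 to 0.35. The part of the dissection in these levels was not tested.

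**Figure D4:**
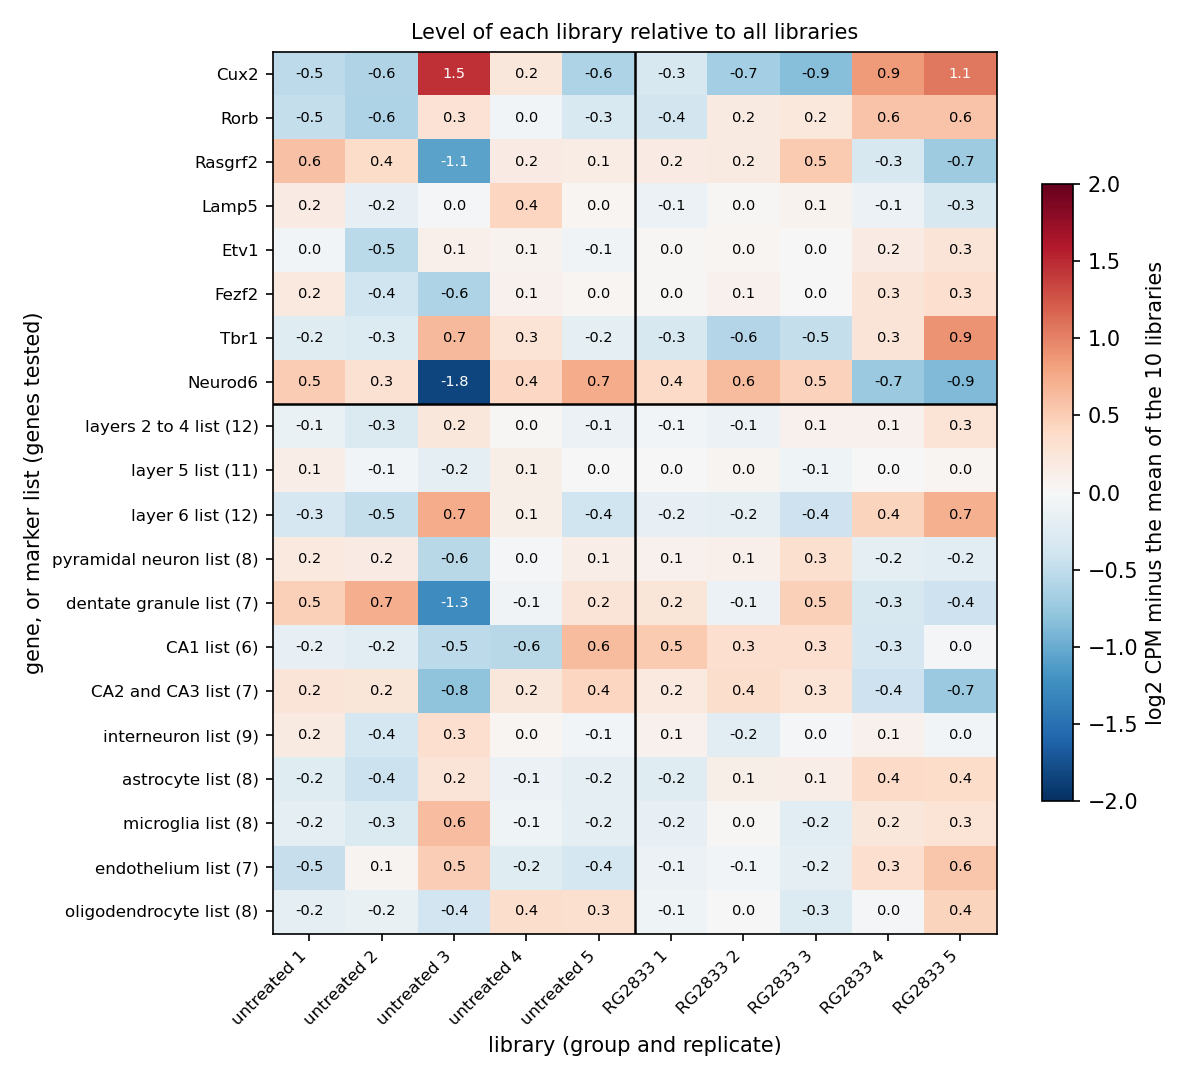
Difference of log2 CPM from the mean of the 10 libraries, for each of the 8 genes (upper block) and for the mean of each marker list (lower block, with the number of genes tested), in every library; red is above and blue below the mean. Cux2, Tbr1 and the layer 6 list are above the mean, and Neurod6, Rasgrf2, the dentate granule list and the list of CA2 and CA3 neurons below it, in untreated replicate 3 and RG2833 replicates 4 and 5.

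For each member the 2 genes with the most similar pattern were taken by Pearson r of log2 CPM over the 10 libraries, among all genes tested that carry a symbol. Since each was the best of all genes tested, r is a description. Of the genes named next, Zc3h12a and Ankrd34c were at low levels, from 1.92 to 3.64 CPM and from 1.09 to 3.18 CPM. Cux2 was nearest to Zc3h12a (r = 0.989, rho = 0.976) and Camk2d (0.986 and 0.891), and r was still 0.987 and 0.977 without untreated replicate 3 and RG2833 replicate 5, the 2 libraries farthest from the median of Cux2. Tbr1 was nearest to Tshz3 (r = 0.987, rho = 0.915; 0.979 without the same 2 libraries) and Ankrd34c (0.963 and 0.879; 0.894). Rasgrf2 was nearest to Prkce (0.992 and 0.952; 0.974) and Nrp2 (0.988 and 0.952; 0.946), and Neurod6 to Nrip3 (0.992 and 0.952; 0.980) and Gpr155 (0.992 and 0.818; 0.966).

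Rorb had other neighbours. Its nearest genes were Slc1a3, the astrocytic glutamate transporter GLAST (r = 0.995, rho = 0.976), and Sfxn5, a mitochondrial carrier (0.991 and 0.988). Without untreated replicates 1 and 2, its farthest libraries, r was 0.995 and 0.983. Slc1a3 had a log2 fold change of 0.33 and Sfxn5 one of 0.41 in the same direction as Rorb (edgeR adjusted p = 0.841 for both). For Lamp5, Etv1 and Fezf2, r was from 0.550 to 0.825 for the 2 nearest genes without the 2 farthest libraries. Lamp5 was nearest to Fstl5 (r = 0.916, rho = 0.903), where r was 0.762 without its 2 farthest libraries, and to Klhl4 (0.915 and 0.879), where it was 0.550. Etv1 was nearest to Mapk8 (0.965 and 0.867; 0.779 without 2) and Rnf180 (0.958 and 0.842; 0.825), and Fezf2 to Efr3a (0.958 and 0.794; 0.784) and Ephb6 (0.943 and 0.855; 0.570).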

How the data were processed

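The authors deposited RSEM expected counts per gene; 11.6% of the values were not whole and were rounded. The submitters' processing notes name bcl2fastq 2.17, Bowtie2 2.1.0, RSEM 1.2.15, edgeR and the build rn6, without their roles; the annotation is not given in the sources used here. A second deposited table holds the authors' signal, TMM-normalized CPM; 100% of its values above 0 were whole multiples of the step of 1 read (within 0.05 reads), and edgeR on these reads called 0 genes.

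The whole table was fitted with edgeR 4.0.16 (R 4.3.3): filterByExpr (minimum count 10, minimum total 15; 12161 of 17168 genes), TMM, and the robust quasi-likelihood F test, with Benjamini-Hochberg adjustment at 0.05. SEs come from the F statistic and 95% intervals from its degrees of freedom. Log2 CPM used a prior count of 2. All 45 pairs of libraries differed by more than sampling noise. The fit was tested on simulated data. Named are all members, genes of the further layer lists at an unadjusted p under 0.05 or with the highest mean, and the 2 nearest genes of each member; others are said to be chosen after their values were seen or are markers of tissue. The members, lists and tests were chosen with earlier results of these data known. Promoters are from RefSeq (GRCr8), matched by symbol for all 8 members measured. Alternatives were other scalings, filters and tools (DESeq2 1.42.0, limma 3.58.1), a replicate block, and leaving out rats; leaving out the 3 rats highest in Cux2 and the recovered reads were added after the data were seen.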

Additional observations from a re-analysis of the deposited data

Results flagged for a closer look

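Values are listed here where 1 rat's distance to its closest neighbour exceeded 0.71 of its group's range in log2 CPM. The 8 members and the means of 16 marker lists were looked at in both groups. Of these 48 sets of 5 values, 6 did so, where chance gives about 1 in 20, or 2.4. In untreated replicate 3, Neurod6 was low by 0.831 of the range, at 42.1 CPM where the rest of the group had 188 to 254 CPM, and Rasgrf2 was low by 0.736, at 34.7 CPM. In the same library the list of pyramidal neurons in general was low by 0.716 and that of CA2 and CA3 neurons by 0.831 of the range, and the microglia list was high by 0.773. In untreated replicate 2, Etv1 was low by 0.725 of the range, at 70.9 CPM where the rest of the group had 98.1 to 111 CPM.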

How the results depend on the processing

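The log2 fold changes of Rorb, Lamp5, Etv1 and Fezf2 kept their sign and stayed short of the threshold under all 20 alternatives run. That of Cux2 (-0.02) turned to 0.040 in limma-voom with sample weights and to 0.076 with the replicate number as a block, and ran from -0.33 to 0.56 in the leave-one-out fits, above 0 without untreated replicate 3 (0.56) and without RG2833 replicates 1 (0.09), 2 (0.14) or 3 (0.16). Tbr1 ran from -0.33 to 0.16, above 0 without untreated replicates 3 (0.16) or 4 (0.03) and RG2833 replicates 1 (0.06), 2 (0.11) or 3 (0.09). Neurod6 ran from -0.40 to 0.026, above 0 without untreated replicate 5 (0.01) and RG2833 replicates 4 (0.0086) or 5 (0.026), and Rasgrf2 from -0.29 to 0.039, above 0 without untreated replicate 1 (0.03) or RG2833 replicate 5 (0.039). The cause was not tested. No member passed over all genes under any alternative; the lowest adjusted p was 0.292, for Rorb without untreated replicate 3.

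The count of genes at an adjusted p under 0.05 was 0 in edgeR and 7 in DESeq2, and 0 in each leave-one-out fit. Genes at an unadjusted p under 0.05 numbered 688, but 1263 in limma-voom with sample weights, and from 375 (without RG2833 replicate 4) through 424 (without RG2833 replicate 5) to 1732 (without untreated replicate 3) in the leave-one-out fits. Members at an unadjusted p under 0.05 numbered 1, and 0 with median-of-ratios or upper-quartile scaling; the leave-one-out range was 0 to 1, and the member was Rorb without untreated replicate 3 or RG2833 replicate 1, Fezf2 without untreated replicate 1 and Lamp5 without untreated replicate 2. Among the further layer markers the count of 4 ran from 1 to 6. The median over the members (-0.02) ran from -0.069 to 0.16. The replicate numbers were taken only as names of the rats. The correlation of deviations between rats of the same number ran from -0.49 to -0.03, which cannot show whether the numbers stand for anything else. With the number as a block in edgeR, 401 genes had an unadjusted p under 0.05 and 0 an adjusted one.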
